A study of Arabidopsis thaliana and Brassica rapa with 28 samples.

Results

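The genes described here are the 3 tandem C-repeat binding factor genes of Arabidopsis thaliana, CBF1, CBF2 and CBF3, and 7 of their cold-regulated targets, COR15A, COR15B, RD29A, KIN1, KIN2, GolS3 and COR414-TM1. They were picked by gene identifier, 10 of the 33543 genes in the deposited Arabidopsis tables, after their levels in shade and in the transgenic seedlings were known. Their FPKM values, fold changes and calls, and their place in tests run across all genes, are therefore a description and support nothing about them. RNA was sequenced from whole seedlings aged 5 d that had been grown in white light (W) and then spent 4 h in W or in shade, here a low red:far-red ratio. The CER6pro>>axr3-1 seedlings expressed axr3-1::mCit under the promoter of CER6, a wax synthesis gene active in the epidermis. The axr3-1 allele makes a stabilised AXR3 protein that represses auxin response. The sign >> denotes expression through a separate driver, and mCit is a fluorescent protein. The control seedlings were hemizygous for UAS::axr3-1::mCit, so they carried the axr3-1 construct too. The groups were CER6pro>>axr3-1 in shade, CER6pro>>axr3-1 in W, control in shade and control in W, with 4 libraries each. The authors pooled the libraries of a group into 1 FPKM, fragments scaled to transcript length and library size, so no library values, no spread between libraries and no depth can be given. The labels do not say whether libraries came from separate batches of seedlings, so the authors' p-values measure the spread between these libraries, which may be technical.

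CBF proteins, also called DREB1 proteins, are AP2-domain transcription factors that bind the CRT/DRE element and switch on the COR (cold-regulated) genes within hours of a fall in temperature. Their targets make hydrophilic proteins, chloroplast membrane proteins and the enzymes of protective sugars, and plants that express CBFs at a high level survive freezing better but grow less. In Arabidopsis, phytochrome B and the PIF transcription factors are known to act on CBF transcription, and shade light is known to raise CBF and COR transcripts without a fall in temperature.

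The CBF genes stand side by side on chromosome 4 in the authors' TAIR10 loci, CBF2 (AT4G25470) at chr4:13015277-13016220, CBF3 (AT4G25480) at chr4:13018214-13019121 and CBF1 (AT4G25490) at chr4:13021780-13022725. Each had 1 exon and lay on the minus strand in the TAIR10.1 RefSeq annotation, which shares its nuclear coordinates with TAIR10. COR15B (AT2G42530) at chr2:17709036-17709945 and COR15A (AT2G42540) at chr2:17711032-17712330 are neighbours with 2 exons each on the minus strand. KIN1 (AT5G15960) at chr5:5209898-5210727 and KIN2 (AT5G15970) at chr5:5211911-5212665 are neighbours with 3 exons each on the plus strand. RD29A (AT5G52310) lies at chr5:21240843-21243613 and GolS3 (AT1G09350) at chr1:3019819-3021441, both on the plus strand with 4 exons. COR414-TM1 (AT1G29395) lies at chr1:10288197-10289624 on the minus strand with 6 exons. The coding sequences of KIN1 and KIN2 were 95.0% identical, those of COR15A and COR15B 82.6%, and those of the CBF genes 85.0 to 86.7%. Reads were 50 bases long, and the share of 50-base stretches of a transcript that also occurred in another gene's transcript was 0.596% for CBF3, 2.48% for CBF1 and 3.95% for CBF2. It was 1.28% for KIN1, 1.43% for KIN2 and 1.03% for COR414-TM1, which shares them with its neighbour COR413IM2, and 0 for the remaining members. No source used here says how the authors' counting split such reads.

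The element that CBF proteins bind has the core CCGAC, and the 7 targets all held it, on either strand, in the 500 bases before the start codon, where none of the CBF genes did. The same window held it in 23.3% of 27443 genes. It occurred 4 times before RD29A, 2 times before COR15A and before GolS3, and 1 time before each of the other targets. The sites are shown because the core is the one that CBF proteins are known to bind. Capitals mark the core on the strand of the gene, read 5′ to 3′, and GTCGG is the same core on the other strand. Each stretch is from the RefSeq TAIR10.1 genome, named by its gene and the distance in bases from the first base of the core to the start codon.
COR15A, 443 bases: aacttgttggCCGACatacatttgt
COR15A, 266 bases: aatttcatggCCGACctgctttttt
COR15B, 265 bases: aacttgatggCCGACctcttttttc
RD29A, 352 bases: tagacatggaCCGACtactaataat
RD29A, 302 bases: aaatatcataCCGACatcagtttga
RD29A, 245 bases: agatatactaCCGACatgagttcca
RD29A, 208 bases: aaagatcaagCCGACacagacacgc
KIN1, 178 bases: taaatagctaCCGACataaggcaaa
KIN2, 185 bases: taaaaagctaCCGACataaggcaaa
GolS3, 465 bases: taaatagtagGTCGGccatgggtcg
GolS3, 454 bases: tcggccatggGTCGGacaaaataga
COR414-TM1, 386 bases: aattagttatGTCGGtaccaatgaa

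The COR15A stretches lie at chr2:17712395-17712419 and chr2:17712218-17712242 and the COR15B one at chr2:17710124-17710148, all on the minus strand. Those of RD29A lie at chr5:21240567-21240591, chr5:21240617-21240641, chr5:21240674-21240698 and chr5:21240711-21240735 on the plus strand. The KIN1 stretch lies at chr5:5209804-5209828 and the KIN2 one at chr5:5211771-5211795, both on the plus strand. The GolS3 stretches, which overlap, lie at chr1:3019413-3019437 and chr1:3019424-3019448 on the plus strand, and the COR414-TM1 one at chr1:10289911-10289935 on the minus strand. The KIN1 and KIN2 stretches differed at 1 of 25 bases. The levels of these genes are described further on, and the part of the site in them was not tested. The COR15B stretch differed from the nearer COR15A one at 5 of 25 bases. With the annotated transcript starts, some of these stretches fall within the 5′ UTR. A match of these letters is not evidence of binding.

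In the 500 bases before the start codon of the CBF genes, the sequences shown hold ACGTG. It is the core of the abscisic acid response element and of the G-box CACGTG that PIF proteins can bind. With the annotated transcript starts, the CBF1 and CBF3 stretches fall within the 5′ UTR and the CBF2 one lies upstream of the transcript. A further match before CBF1, at 326 bases and on the other strand, is not printed. All 10 members held ACGTG on either strand in the 500 bases, against 34.8% of genes, and a CACGTG gives 2 such matches because it reads the same on both strands. CACGTG was found before 8 of the 10, all but CBF3 and RD29A, against 9.30% of genes. CACATG, a further sequence that PIF proteins can bind, was found before 5 of the 10 against 17.9% of genes. Capitals mark CACGTG or ACGTG in these stretches from RefSeq TAIR10.1, which lie on the minus strand at chr4:13022822-13022847 for CBF1, chr4:13016322-13016347 for CBF2 and chr4:13019231-13019255 for CBF3.
CBF1, 275 bases: atgtactataCACGTGtcattcacag
CBF2, 251 bases: gtttcttatcCACGTGgcattcacag
CBF3, 242 bases: tgtatagtttACGTGgcattaccag

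**Figure D1:**
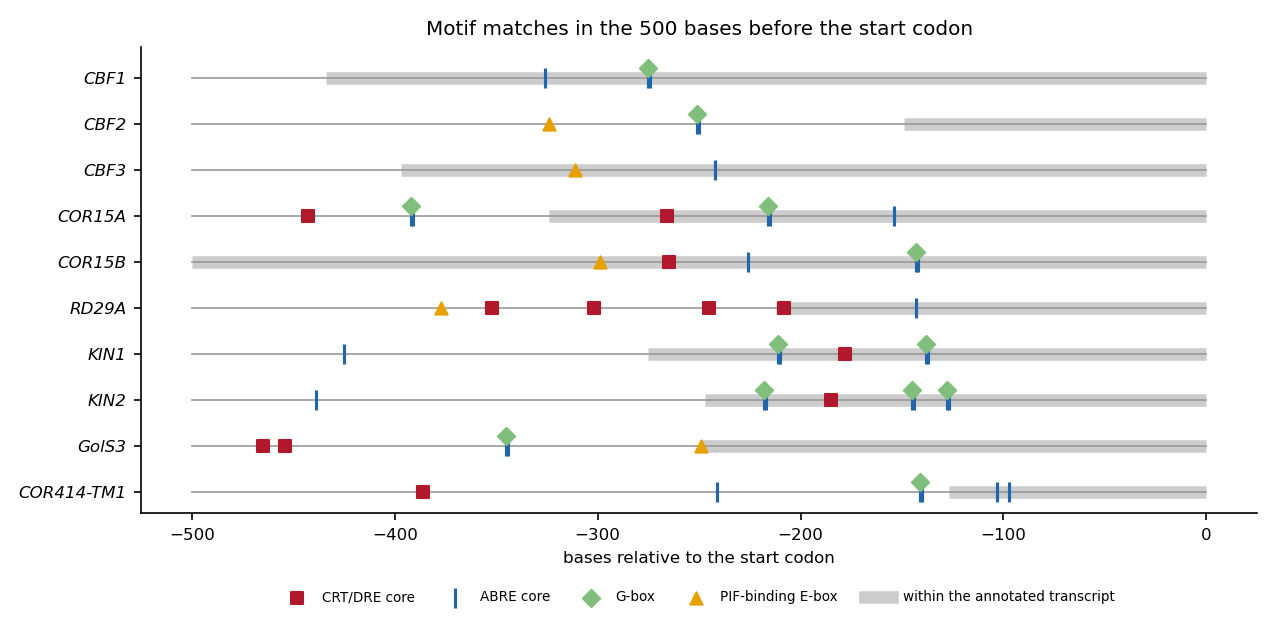
Positions of the CRT/DRE core, the G-box and the other motifs searched in the 500 bases before the start codon of each of the 10 members, with the distance to the start codon in bases along the horizontal axis and grey bands for the annotated transcript. CRT/DRE marks stand in the rows of the 7 targets and in none of the 3 CBF rows.

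The labels were checked first. AXR3, whose reads cannot be told apart from those of the axr3-1 transgene, had 112 FPKM in CER6pro>>axr3-1 shade, 113 in CER6pro>>axr3-1 W, 37.1 in control shade and 47.1 in control W. PIL1, a shade marker, had 44.6 FPKM in shade and 0.895 in W in CER6pro>>axr3-1 seedlings, and 37.3 in shade and 0.894 in W in control seedlings. Of 9 markers of shoot, epidermis, guard cells and root, none was at 0 in any group, and 2 were called in one of the 4 comparisons that change a single factor. The epidermal gene PDF1 had 202 FPKM in CER6pro>>axr3-1 W and 411 in control W, a log2 fold of -1.03 ± 0.27 (SE; q 0.00793 in the authors' deposited table). The guard cell gene KAT1 had 44.6 FPKM in CER6pro>>axr3-1 shade and 11.3 in CER6pro>>axr3-1 W, a log2 fold of 1.98 ± 0.31 (SE; q 0.00309 in the authors' deposited table). The 3 epidermal markers summed to 513 FPKM in CER6pro>>axr3-1 shade, 412 in CER6pro>>axr3-1 W, 624 in control shade and 715 in control W. The 2 guard cell markers summed to 57.4 FPKM in CER6pro>>axr3-1 shade, 22.8 in CER6pro>>axr3-1 W, 39.8 in control shade and 29.8 in control W. That sum followed KAT1. FAMA, the other guard cell marker, had 12.8 FPKM in CER6pro>>axr3-1 shade, 11.4 in CER6pro>>axr3-1 W, 12.5 in control shade and 13.6 in control W. The sums ranged from 1430 to 2378 FPKM for the 2 root markers and from 18925 to 23664 for the 2 shoot markers. Of the root markers, PYK10 ranged from 1417 to 2364 FPKM and SHR from 12.6 to 13.95. The part of the 9 markers in the values of the cold genes was not tested. In whole seedlings fewer cells of a type and less RNA per cell cannot be told apart.

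The CBF transcripts were scarce in all groups and were highest in control shade. CBF1 had 1.35 FPKM in CER6pro>>axr3-1 shade, 0.148 in CER6pro>>axr3-1 W, 2.76 in control shade and 0.239 in control W. CBF2 had 2.57 FPKM in CER6pro>>axr3-1 shade, 0.944 in CER6pro>>axr3-1 W, 4.57 in control shade and 1.04 in control W. CBF3 had 2.19 FPKM in CER6pro>>axr3-1 shade, 0.351 in CER6pro>>axr3-1 W, 6.38 in control shade and 1.01 in control W. CBF3 was thus the most abundant of the 3 per length in control shade, and CBF2 in the other groups. In CER6pro>>axr3-1 seedlings in shade the CBF genes stood at 34.4 to 56.3% of their level in control seedlings in shade.

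Levels of the targets spanned a wide range. COR15A and COR15B encode hydrophilic proteins of the chloroplast stroma that protect membranes in freezing. COR15A had 35.9 FPKM in CER6pro>>axr3-1 shade, 8.47 in CER6pro>>axr3-1 W, 306 in control shade and 13.7 in control W. COR15B had 33.3 FPKM in CER6pro>>axr3-1 shade, 4.35 in CER6pro>>axr3-1 W, 195 in control shade and 20.5 in control W. In control shade both stood far above the other groups. The ratio of COR15A to COR15B FPKM was 1.08 in CER6pro>>axr3-1 shade, 1.95 in CER6pro>>axr3-1 W, 1.57 in control shade and 0.668 in control W, so it was lower in shade in one genotype and higher in the other. RD29A, a hydrophilic protein gene with both CRT/DRE and abscisic acid response elements in its promoter, had 55.6 FPKM in CER6pro>>axr3-1 shade, 17.7 in CER6pro>>axr3-1 W, 213 in control shade and 21.9 in control W. Its W levels lay close together and its shade levels far apart.

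GolS3 encodes galactinol synthase, which makes the galactose donor for raffinose sugars and is the cold-induced member of its family. It had 6.71 FPKM in CER6pro>>axr3-1 shade, 2.15 in CER6pro>>axr3-1 W, 40.0 in control shade and 3.61 in control W. COR414-TM1 encodes a protein of the chloroplast inner envelope and had 244 FPKM in CER6pro>>axr3-1 shade, 58.3 in CER6pro>>axr3-1 W, 445 in control shade and 95.0 in control W. Its shade level in CER6pro>>axr3-1 seedlings was 54.9% of that in control seedlings, the highest share among the targets, and the lowest was the 11.8% of COR15A.

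KIN1 and KIN2 encode small hydrophilic proteins of near-identical sequence. KIN2 had 237 FPKM in CER6pro>>axr3-1 shade, 128 in CER6pro>>axr3-1 W, 667 in control shade and 190 in control W. KIN1 had 18.0 FPKM in CER6pro>>axr3-1 shade, 37.8 in CER6pro>>axr3-1 W, 45.4 in control shade and 35.2 in control W. KIN1 alone was lowest in CER6pro>>axr3-1 shade. Per length, KIN2 exceeded KIN1 by 13.2 times in CER6pro>>axr3-1 shade, 3.37 times in CER6pro>>axr3-1 W, 14.7 times in control shade and 5.39 times in control W.

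**Figure D2:**
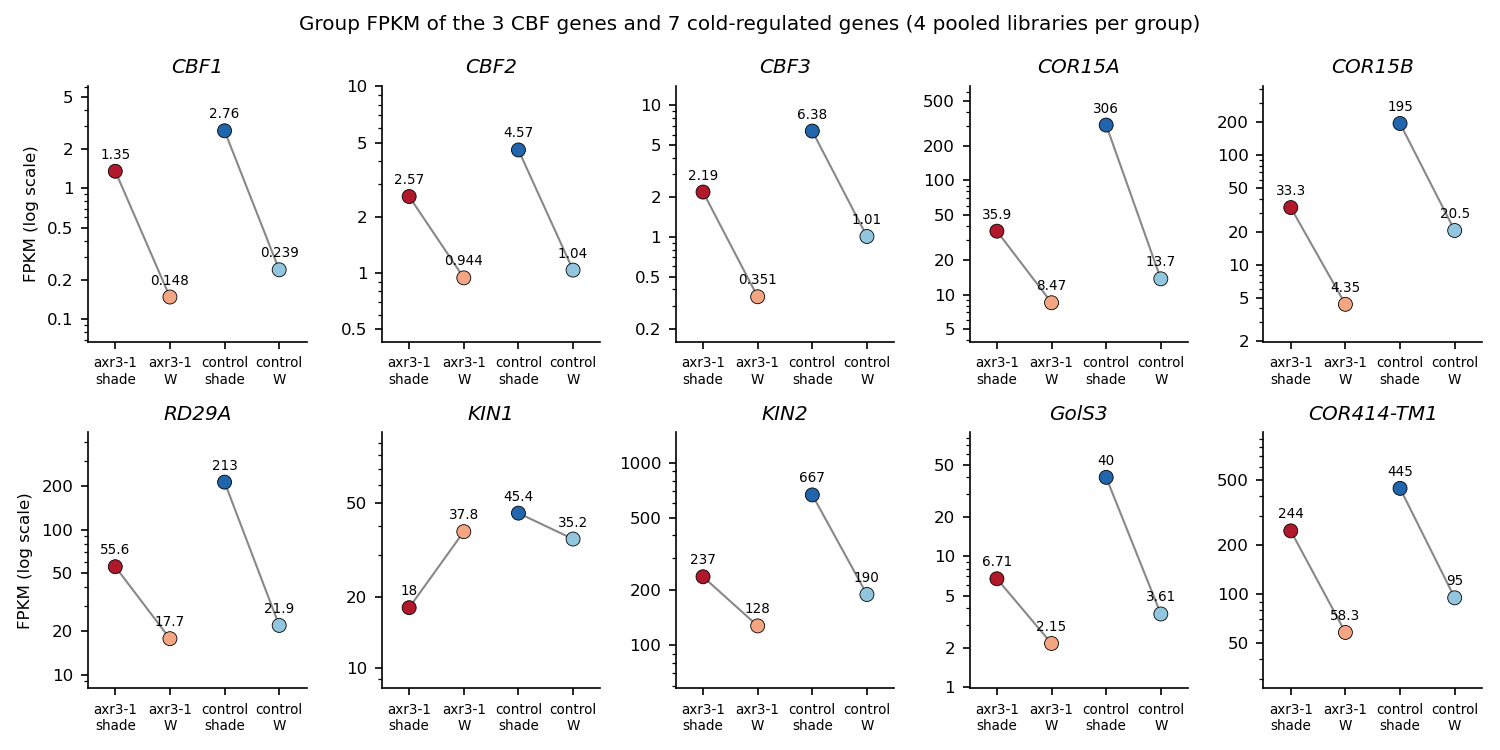
FPKM of the 10 members on a log axis in the 4 groups, each point 1 value pooled by the authors over 4 libraries, with no error bar because library values are not in the tables. Control shade is the highest group for every member, and KIN1 is the only member whose CER6pro>>axr3-1 shade level is the lowest.

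The order of levels was control shade, CER6pro>>axr3-1 shade, control W and then CER6pro>>axr3-1 W in 9 of the 10 members, and KIN1 had control shade, CER6pro>>axr3-1 W, control W and then CER6pro>>axr3-1 shade. A gene is called here where the authors' deposited table gives it a q under 0.05. The SE of a log2 fold was derived from the authors' test statistic with a single scaling factor per comparison. For some members, such as the CBF genes and KIN1 in shade against W, it is therefore smaller than the authors' deposited p implies. Among neighbours in that order of the 9 members, control shade and CER6pro>>axr3-1 shade differed by a call in all but CBF1 and CBF2. CER6pro>>axr3-1 shade and control W differed by a call in COR15A, RD29A and COR414-TM1 only, and the W groups in COR15B only.

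The first comparison asked how control seedlings responded to 4 h of shade. Of the 10 members, 8 were called higher in control shade than in control W and 0 lower, where 2.85% of 20325 genes tested were called, 1.24% higher and 1.61% lower. The members were chosen on this contrast, so nothing is read from that count. COR15A had the largest log2 fold of the members at 4.48 ± 0.35 (SE), rank 4 among the 19544 genes that reached 1 FPKM in both groups. GolS3 followed at 3.47 ± 0.30, RD29A at 3.28 ± 0.28 and COR15B at 3.25 ± 0.23 (SE). COR414-TM1 stood at 2.23 ± 0.21 and KIN2 at 1.81 ± 0.16 (SE), and these 6 had a q of 0.00309 in the authors' deposited table, the smallest it holds. Of the CBF genes, CBF3 stood at 2.66 ± 0.43 (SE) with a q of 0.00793 and CBF2 at 2.14 ± 0.44 (SE) with a q of 0.0101 in the authors' deposited table. CBF1 had a log2 fold of 3.53 ± 0.69 (SE) but was not called, with a q of 0.172 in the authors' deposited table. KIN1 stood at 0.37 ± 0.18 (SE) and was not called. In the authors' deposited table the p was 0.008 for CBF1, 0.0002 for CBF2, 0.00015 for CBF3 and 0.1611 for KIN1. Each is larger than the fold over its SE would give, so the SE understates the uncertainty of these folds. Adding 1 FPKM to each value gave log2 folds of 1.60 for CBF1, 1.45 for CBF2 and 1.88 for CBF3.

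The second comparison asked the same of CER6pro>>axr3-1 seedlings, which share no library with the first. There 6 members were called higher in CER6pro>>axr3-1 shade than in CER6pro>>axr3-1 W, 1 was called lower and 3 were not called, where 2.52% of 20441 genes tested were called, 0.778% higher and 1.75% lower. COR15B had a log2 fold of 2.93 ± 0.31, COR15A 2.08 ± 0.38, COR414-TM1 2.07 ± 0.21, RD29A 1.65 ± 0.32, GolS3 1.64 ± 0.34 and KIN2 0.90 ± 0.15 (SE). The CBF genes, none of them called, had log2 folds of 3.19 ± 0.80 for CBF1, 2.64 ± 0.63 for CBF3 and 1.45 ± 0.47 for CBF2 (SE). With 1 FPKM added to each value they were 1.04 for CBF1, 1.24 for CBF3 and 0.88 for CBF2. KIN1 was the member called lower, at -1.07 ± 0.20 (SE) with a q of 0.0178 in the authors' deposited table. The median log2 fold of the members was 1.86 in CER6pro>>axr3-1 and 2.95 in control seedlings, against 0.02 and 0.005 for the median gene.

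In W, COR15B was the only member called between the genotypes. Of the 9 members tested, 0 were called higher in CER6pro>>axr3-1 W than in control W and 1 was called lower, COR15B at -2.24 ± 0.33 (SE) with a q of 0.00309 in the authors' deposited table, where 2.16% of 20470 genes tested were called, 1.46% higher and 0.699% lower. CBF1 was too low to be tested by the authors. The other tested members had log2 folds from -1.52 ± 0.67 for CBF3 to 0.10 ± 0.19 for KIN1 (SE). With the untested CBF1 included, 9 of the 10 members lay below 0, with a median of -0.69 against 0.005 for the median gene. COR414-TM1 at -0.71 ± 0.20 (SE) came nearest to a call after COR15B, with a q of 0.0691 in the authors' deposited table.

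In shade most members were lower in CER6pro>>axr3-1 seedlings. Of the 10 members, 8 were called lower in CER6pro>>axr3-1 shade than in control shade and 0 higher, where 1.25% of 20321 genes tested were called, 0.463% lower and 0.792% higher. COR15A had a log2 fold of -3.09 ± 0.33 (SE), rank 4 from the lowest of 19531 genes, and GolS3 of -2.57 ± 0.27 and COR15B of -2.55 ± 0.21 (SE) held ranks 10 and 11. RD29A stood at -1.94 ± 0.33, KIN2 at -1.49 ± 0.17 and KIN1 at -1.33 ± 0.20 (SE). CBF3 at -1.54 ± 0.37 and COR414-TM1 at -0.87 ± 0.22 (SE) each had a q of 0.0195 in the authors' deposited table. CBF1 at -1.03 ± 0.43 and CBF2 at -0.83 ± 0.37 (SE) were not called. The comparisons across both factors share libraries with these. CER6pro>>axr3-1 shade against control W called 3 members higher and 1 lower, KIN1, where 4.75% of genes tested were called, 2.49% higher and 2.26% lower. Control shade against CER6pro>>axr3-1 W called 8 members higher and 0 lower, where 3.94% of genes tested were called, 1.21% higher and 2.73% lower.

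**Figure D3:**
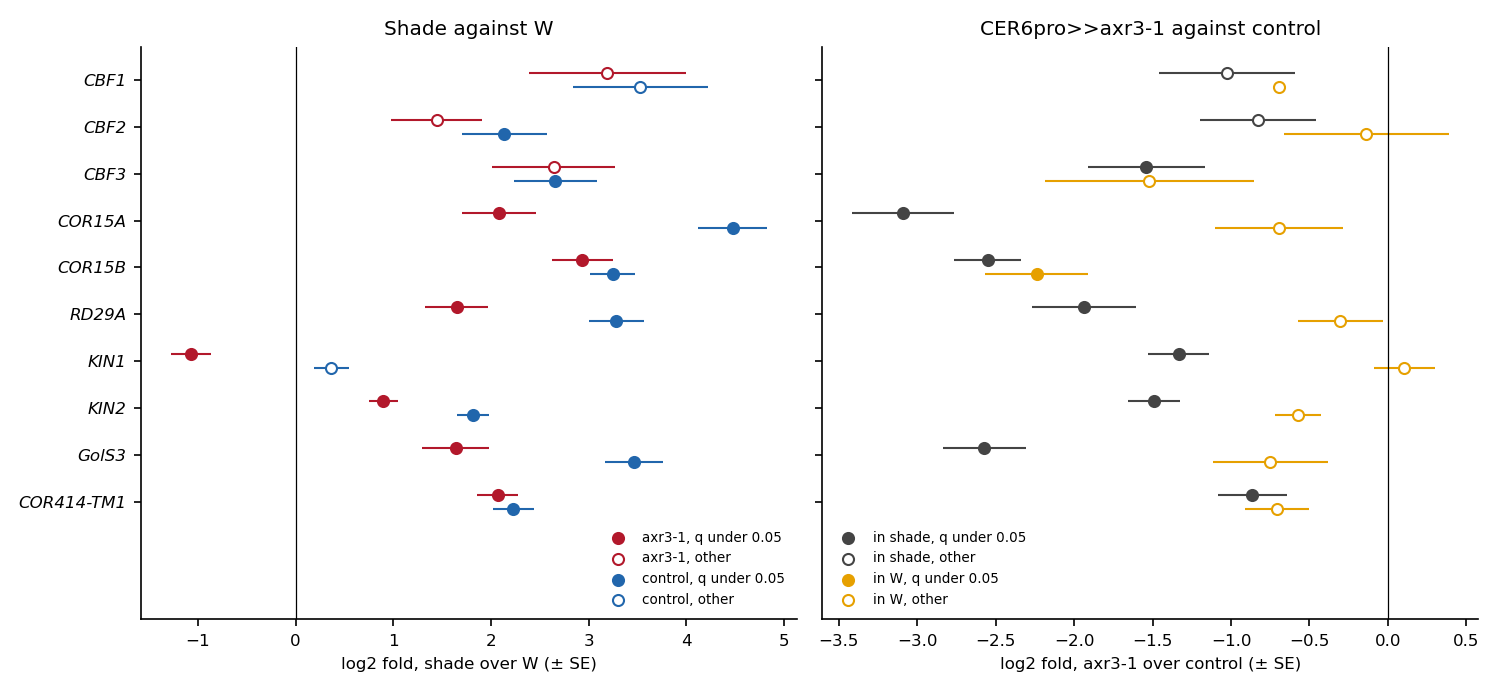
Log2 folds of the 10 members in the 4 comparisons that change a single factor, with bars of 1 SE derived from the authors' statistic and calls at a q under 0.05 marked. The shade folds of control seedlings run from 0.37 for KIN1 to 4.48 for COR15A, and the folds of CER6pro>>axr3-1 against control in shade all lie below 0.

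The last comparison set the shade responses of the genotypes against each other, as the log2 fold in CER6pro>>axr3-1 seedlings minus that in control seedlings. All 10 members had a difference below 0, with a median of -0.80 against 0.01 for all genes. In a two-sided z test adjusted over 19990 genes, 5 members passed as lower and 0 as higher, where 0.62% of genes passed, 0.435% as lower and 0.185% as higher. The 5 were COR15A at -2.39 ± 0.52, GolS3 at -1.83 ± 0.45, RD29A at -1.63 ± 0.43, KIN1 at -1.44 ± 0.27 and KIN2 at -0.92 ± 0.22 (SE). Since the members were chosen with the contrasts behind it known, this too is a description that supports nothing. COR15B at -0.31 ± 0.39 and COR414-TM1 at -0.16 ± 0.30 (SE) did not pass. Both were called lower in CER6pro>>axr3-1 in shade, and COR15B also in W. The CBF genes had differences of -0.69 ± 0.64 for CBF2, -0.34 ± 1.06 for CBF1 and -0.02 ± 0.76 for CBF3 (SE), with larger errors than any of the targets. None of the 5 passed with the unscaled statistic as its error, or with an error taken from the deposited p.

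**Figure D4:**
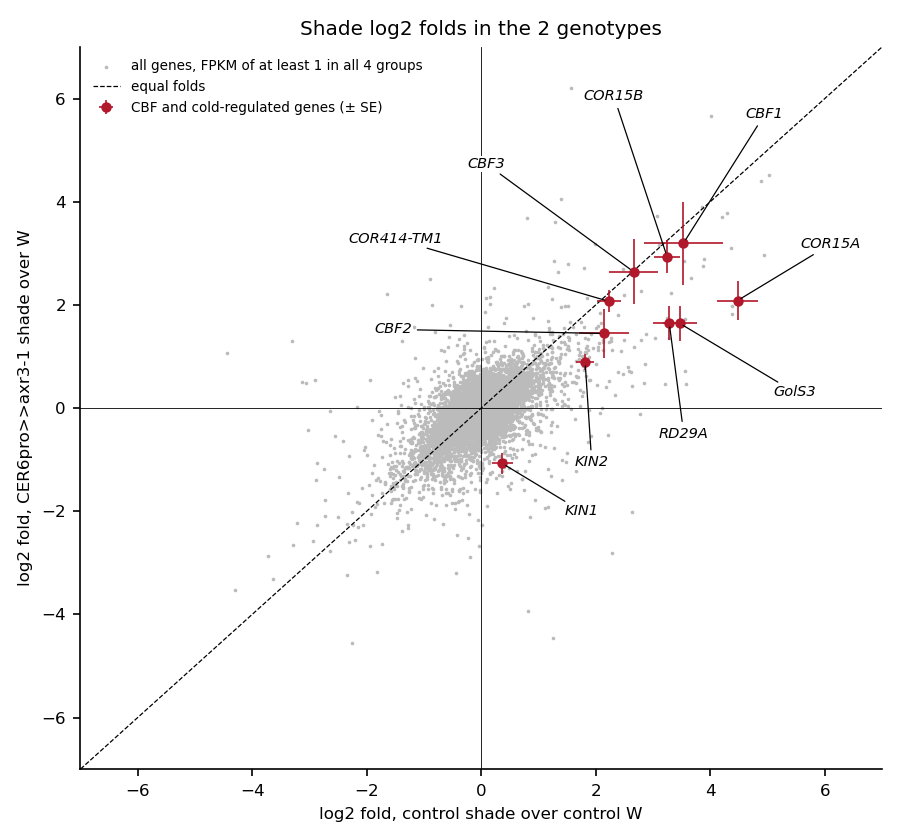
Log2 fold of shade against W in CER6pro>>axr3-1 seedlings (vertical) and in control seedlings (horizontal) for 19274 genes in grey and the 10 members in colour, with the line of equal folds. The members lie on or below the line, COR15A farthest below it at 2.08 against 4.48.

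Measured in FPKM gained in shade, CER6pro>>axr3-1 seedlings gained 9.40% of what control seedlings gained for COR15A, 12.6% for GolS3, 16.6% for COR15B, 19.8% for RD29A and 23.0% for KIN2. The share was larger for COR414-TM1, at 53.1%, and for the CBF genes, at 47.8% for CBF1, 46.1% for CBF2 and 34.3% for CBF3. KIN1 lost FPKM in CER6pro>>axr3-1 seedlings in shade. These shares depend on the level in W as well as on the fold. In W, CER6pro>>axr3-1 seedlings stood at 21.2% of control seedlings for COR15B, 34.8% for CBF3 and 61.7% for COR15A. Shade over W was 7.65 times in CER6pro>>axr3-1 against 9.49 in control seedlings for COR15B, 6.25 against 6.33 for CBF3 and 4.24 against 22.3 for COR15A.

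Of 30 genes known to act upstream of the CBF genes, 29 were tested. In CER6pro>>axr3-1 seedlings 1 was called higher in shade and 1 lower, where 0.778% of all genes tested were called higher and 1.75% lower. In control seedlings 2 were called higher and 1 lower, where 1.24% were called higher and 1.61% lower. PIF7, a transcription factor of shade growth that represses CBF genes in long days, had 9.85 FPKM in CER6pro>>axr3-1 shade and 30.8 in CER6pro>>axr3-1 W, a log2 fold of -1.65 ± 0.27, and 8.28 in control shade and 27.6 in control W, one of -1.74 ± 0.28 (SE). PHYB, the photoreceptor of red and far-red light, rose by 0.96 ± 0.27 in CER6pro>>axr3-1 and by 1.02 ± 0.26 in control seedlings (log2, SE). PIF3 rose in control shade by 0.97 ± 0.25 and was higher in CER6pro>>axr3-1 W than in control W by 1.20 ± 0.25 (log2, SE), with 22.6 FPKM against 9.83. No gene of the list was called between the genotypes in shade, where its median log2 fold was 0.05 against 0.01 for all genes, and 0 had a p under 0.05 in the authors' deposited table. None passed the z test of the difference in shade response either, and 1 had an unadjusted p under 0.05.

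Of 18 other transcription factors of cold or drought, 15 were tested. In control shade 2 were called higher and 0 lower, where 1.24% of all genes tested were called higher and 1.61% lower. In CER6pro>>axr3-1 shade 1 was called higher than in W and 0 lower, where 0.778% were called higher and 1.75% lower. RAP2.1, a DREB-family gene that represses cold and drought genes, was called higher in control shade. It had 7.35 FPKM against 1.78 in control W and a log2 fold of 2.05 ± 0.44 (SE). In CER6pro>>axr3-1 seedlings it had 5.87 FPKM in shade against 2.70 in W, a log2 fold of 1.12 ± 0.41 (SE) that was not called. RAV1, a cold-induced factor, rose in shade in both genotypes, by 0.92 ± 0.23 in CER6pro>>axr3-1 and by 1.36 ± 0.21 in control seedlings (log2, SE). No other gene of the list was called in these comparisons, and none was called between the genotypes in either light.

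All 23 other cold-regulated targets were tested. In control shade 2 were called higher and 2 lower, where 1.24% of all genes tested were called higher and 1.61% lower. RCI2A, a small membrane protein gene, had 588 FPKM in control shade and 247 in control W, a log2 fold of 1.25 ± 0.28 (SE), and LEA14 rose by 0.81 ± 0.18 (log2, SE). ELIP1 and ELIP2, which encode early light-induced proteins of the chloroplast, fell by 1.09 ± 0.19 and 1.19 ± 0.24 on the log2 scale (SE). In CER6pro>>axr3-1 seedlings 0 were called higher in shade and 2 lower, where 0.778% of all genes tested were called higher and 1.75% lower. Of the 23, 13 had a log2 fold above 0 there and 10 below. RCI2A stood at 0.63 ± 0.29 there (log2, SE), with 365 FPKM against 236, and was not called. P5CS1, the enzyme of proline synthesis, fell by 1.40 ± 0.29 and ELIP2 by 0.96 ± 0.25 on the log2 scale (SE), and both were called. Between the genotypes in shade 4 were called lower in CER6pro>>axr3-1 and 0 higher, where 0.463% of all genes tested were called lower and 0.792% higher. The 4 became 2 with Benjamini-Hochberg adjustment over 1 table and 0 at a q under 0.01 in the authors' deposited table. These were the starch breakdown genes BAM3, at 40.2 against 73.3 FPKM and a log2 fold of -0.87 ± 0.27, and SEX1, at 40.8 against 72.6 FPKM and -0.83 ± 0.24 (SE). LEA14 had 94.9 against 163 FPKM and -0.78 ± 0.19, and COR413-PM1, a plasma membrane protein gene, had 288 against 492 FPKM and -0.77 ± 0.26 (SE). The median log2 fold of the list was -0.34 in shade between the genotypes, against 0.01 for all genes. In W 1 was called higher in CER6pro>>axr3-1 and 1 lower, where 1.46% of all genes tested were called higher and 0.699% lower. SEX1 was lower, with a log2 fold of -0.89 ± 0.24, and P5CS1 was higher, with one of 1.04 ± 0.29 (SE).

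Of 19 genes of the abscisic acid response, 15 to 17 were tested in a comparison. In control shade 1 was called higher and 1 lower, where 1.24% and 1.61% of all genes tested were. In CER6pro>>axr3-1 shade 0 were called higher than in W and 1 lower, where 0.778% and 1.75% were. Between the genotypes 1 was called higher in CER6pro>>axr3-1 and 0 lower in each light. The shares of all genes there were 1.46% and 0.699% in W, and 0.792% and 0.463% in shade. RD20, a caleosin gene, had 19.8 FPKM in CER6pro>>axr3-1 W and 1.27 in control W, a log2 fold of 3.96 ± 0.48, and 25.2 in CER6pro>>axr3-1 shade and 4.23 in control shade, one of 2.57 ± 0.38 (SE). It was the only gene of the list called between the genotypes, in either light. RD29B, a relative of RD29A, fell by 1.08 ± 0.44 on the log2 scale (SE) in CER6pro>>axr3-1 shade, with 2.87 FPKM against 6.05 in W. In control seedlings in shade RD26, a NAC factor gene, rose by 0.89 ± 0.34 and RD22 fell by 0.89 ± 0.24 on the log2 scale (SE). Of the 90 listed genes outside the members, none that was tested passed the z test of the difference in shade response, with 1 of the 15 tested genes of this list and 3 of the 23 cold-regulated targets at an unadjusted p under 0.05.

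**Figure D5:**
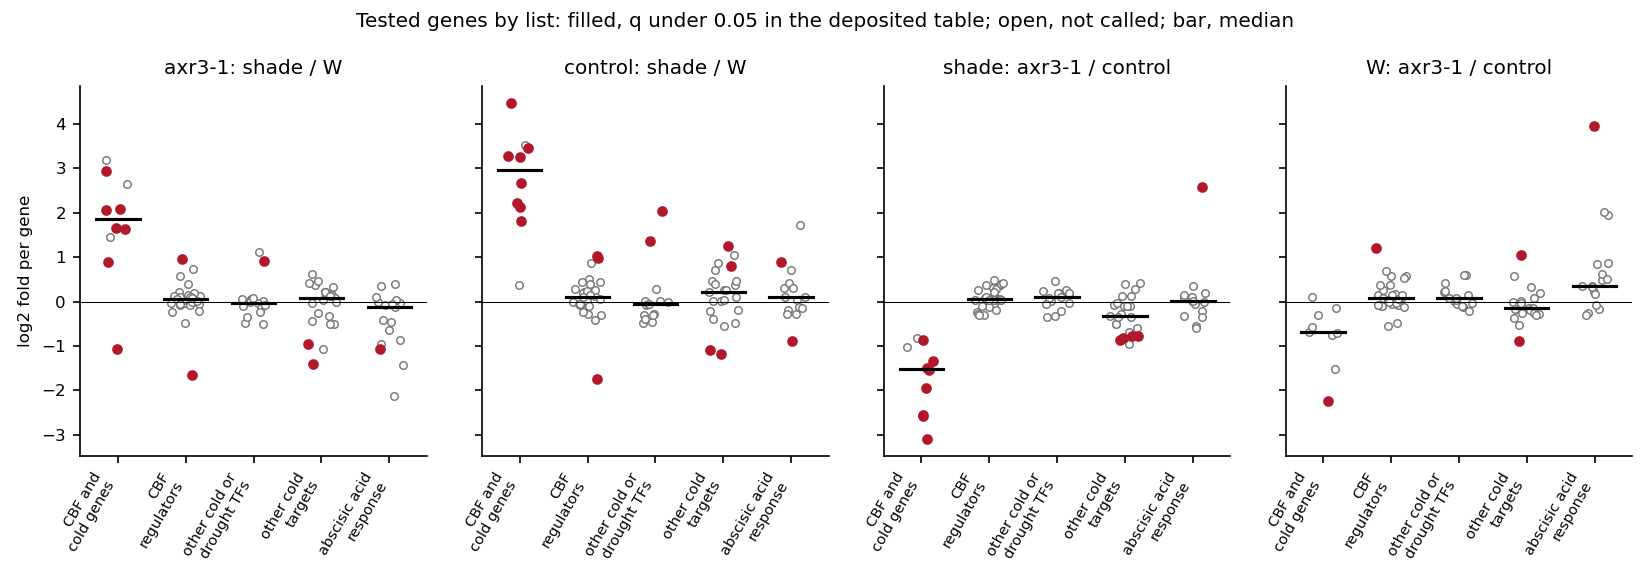
Log2 folds of the members and of the genes of the 4 other lists in the 4 comparisons that change a single factor, each point 1 gene and each bar the list's median. The members' median is farther from 0 than the lists' medians in all 4 comparisons, and is -1.52 between the genotypes in shade. Single members such as KIN1 lie within the range of the lists. The members were chosen with these values known, so this is a description.

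The gene with the levels most like those of COR15A, by Euclidean distance of log2 FPKM centred over the 4 groups, among 19267 genes that reached 1 FPKM in each, was AT1G69140, annotated as a transcribed pseudogene, at a distance of 0.614. It had 17.7 FPKM in CER6pro>>axr3-1 shade, 5.00 in CER6pro>>axr3-1 W, 239 in control shade and 11.4 in control W. A locus without a gene symbol, XLOC_003585, lay over it in the authors' loci and followed at 0.736, and FAR1, a fatty acyl reductase gene, at 1.67, the unnamed locus XLOC_031202 at 1.84 and ADS4, a desaturase gene, at 1.85 came after. Among the members GolS3 was nearest to COR15A at 0.813, and KIN1 farthest at 3.88. Nearest to the mean of the CBF genes were the unnamed locus XLOC_026645 at 0.523, RGF6, a peptide hormone gene, at 0.738 and AT1G02350 at 0.842. Distances over 4 pooled values say nothing of shared function.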

How the data were processed

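Polyadenylated RNA of whole Arabidopsis seedlings was sequenced as stranded single-end libraries of 50 bp, per the labels' protocols. Bases were called with CASAVA 1.8.2, and reads were aligned with TopHat2 2.0.9 and Bowtie2 2.1.0 to TAIR10 and quantified with Cufflinks and Cuffdiff, per the submitters' processing notes. Versions of the last 2 are not given in the sources used here. FPKM values, 1 per group in each of 6 tables, were deposited by the authors, as were the test statistic (a score), p-value and q-value for every gene. Library values were not used here because the tables hold none, so depth is unknown.

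Log2 folds are log2 ratios of group FPKM without a pseudocount. The SE is the size of the log2 fold over the deposited score, times the median ratio of the score to the normal deviate of p for genes with p from 0.001 to 0.5, which was 0.558 to 0.564. Calls used a q under 0.05 in the authors' deposited table. Differences of shade log2 folds were tested with a two-sided z test, Benjamini-Hochberg adjusted over the genes that reached 1 FPKM in any of the groups. The z test was also run on simulated data with known differences. The noise there was drawn from the same SE that the test divides by, so that run cannot check how the SE was scaled. The members and lists were chosen with earlier results of these data known. Named genes were all members, up to 4 called genes of each list per comparison with the largest log2 fold, the 10 genes nearest to COR15A and the 10 nearest to the CBF mean (the nearest few are printed), the label checks and the markers. AT4G33980 stands for a listed gene without a symbol in the reference. Sequences and exons came from RefSeq TAIR10.1, in which 32029 of the 33543 identifiers were found. Brassica tables were not analysed here, since no source pairs their identifiers with Arabidopsis loci. Alternatives were a q under 0.01, Benjamini-Hochberg adjustment over 1 table, pseudocounts of 0.1 and 1 FPKM, centring on the median gene, filters on FPKM and other standard errors. Computation used Python 3.11.15 with pandas 2.3.3, numpy 2.4.6, scipy 1.17.1 and matplotlib 3.10.9.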

Additional observations from a re-analysis of the deposited data

Results flagged for a closer look

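The shade response differed between the genotypes by the z test in 5 members, as the log2 fold in CER6pro>>axr3-1 seedlings minus that in control seedlings. The difference was -2.39 for COR15A, -1.83 for GolS3, -1.63 for RD29A, -1.44 for KIN1 and -0.92 for KIN2. These genes were chosen with the underlying contrasts known, so the result is a description. None of the tested genes among the 90 listed outside the members passed, and 0 members passed with either other standard error. KIN1 alone had shade folds of opposite sign, at -1.07 in CER6pro>>axr3-1 and 0.37 in control seedlings, and only the first was called.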

How the results depend on the processing

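No result reversed its direction under any alternative run, but most alternatives could not have reversed one. Thresholds, adjustments, filters and other standard errors leave a fold as it is, and a pseudocount keeps its sign. Only centring on the median gene, or a pseudocount in a difference of shade folds, could change a sign. At a q under 0.01 in the authors' deposited table, the members called lower in CER6pro>>axr3-1 shade against W numbered 0 in place of 1, since KIN1 was lost. Calls of CBF2 in control shade, and of CBF3 and COR414-TM1 between the genotypes in shade, were lost as well. The listed other genes numbered 4 in place of 7 called higher in control shade, 0 in place of 1 called lower in CER6pro>>axr3-1 W against control W, and 0 in place of 4 called lower in CER6pro>>axr3-1 shade against control shade. The last count was 2 with Benjamini-Hochberg adjustment over 1 table. Genes with a lower shade fold in CER6pro>>axr3-1 numbered 87, against 26 with the unscaled statistic as error and 1 with an error from the deposited p. Genes with a higher one numbered 37, against 19 and 1. Members with a lower one numbered 5, against 0 and 0. The unscaled error is larger by construction, since the error used was that one times 0.558 to 0.564. For the error from p, a gene at the smallest deposited p of 5e-05 has a capped ratio of fold to error, whatever its fold. COR15A, RD29A, KIN2 and GolS3 had that p in both shade comparisons. KIN1 lay above it, with deposited p-values of 0.0004 in CER6pro>>axr3-1 and 0.1611 in control seedlings. Its adjusted p in the z test with this error was 0.641. Why each member lost its pass was not tested. A pseudocount of 1 FPKM moved 10 of 40 member folds by more than their SE (or, for CBF1 in W, which has none, at all), 8 of them of CBF genes, and moved none of the 10 differences of shade folds across the threshold. No paired analysis was possible because the tables hold no library values, and leaving out a replicate was not possible for the same reason. The Brassica alternatives were not run. Depth is unknown, and the CBF genes had FPKM of 0.148 to 1.04 in W.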
